A study of Cavia porcellus with 72 samples.

Results

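The collagen genes were the rows of the 3 hippocampal RNA count tables whose symbol, read in capitals, was made of COL, a number, the letter A and a number. There were 37 such genes, among 11651 genes in the F1 table, 11716 in F2 and 11663 in F3. Of these, 35 had a row in all 3 tables, and COL20A1 and COL6A6 had a row in F2 only. By class, 11 were fibrillar, 6 belonged to the basement membrane, 8 were FACIT collagens (fibril-associated collagens with interrupted triple helices) and 12 were of other kinds. Another 7 collagen symbols of the guinea pig's RefSeq annotation were not analysed here, namely COL6A1, COL6A5, COL10A1, COL19A1, COL21A1, COL26A1 and COL28A1.

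Collagens are proteins of the extracellular matrix built around a triple helix. Fibrillar types form the fibrils of connective tissue, type IV forms the meshwork of basement membranes, and FACIT collagens sit on the surface of fibrils. In the brain, fibrillar collagens are known mainly from the meninges and the walls of larger vessels and type IV from the basement membrane of capillaries, whereas some transmembrane collagens are made by neurons.

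The animals were female Dunkin-Hartley guinea pigs, studied as juveniles on postnatal day 40, from 3 generations of a paternal line. The F0 mothers were given either vehicle (control) or betamethasone, which is a synthetic glucocorticoid (sGC), while pregnant. F1 were the fetuses of those pregnancies, and F2 and F3 descended from them through males mated with females from outside the experiment, so that sGC in F2 and F3 names the lineage and not a treatment of the animal. RNA was taken from powdered right hippocampus, with 6 control and 5 sGC libraries in F1, 6 and 6 in F2, and 6 and 7 in F3. Each within-generation comparison asked whether sGC in the F0 pregnancy went with altered RNA levels in the hippocampus of that generation.

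The count tables held between 13507449 and 19767033 reads per library. Levels are given as counts per 1000000 reads (CPM), scaled over all 36 libraries, and are compared between libraries but not between genes, since they depend on gene length. Of 12 markers of hippocampal neurons, 11 had a row in all tables and none of these was at 0 in a library. CAMK2A, the kinase of excitatory synapses, lay between 4877 and 8386 CPM, and PROX1, a marker of dentate granule cells, between 85.3 and 141 CPM. Because whole tissue was sequenced, fewer cells of a type and less RNA per cell cannot be told apart.

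One library stood apart before any comparison. F3 sGC replicate 5 lay closer to the mean of its group than sampling of reads allows, with a squared distance 0.535 times that of sampling noise (median over genes with at least 200 reads on average), where the other 35 libraries had 2.21 to 12.8 times. Against the mean of F3 sGC replicates 1, 2, 3, 4 and 7, chosen after the data were seen, it was 0.102 times. Its count lay within the range of the other 6 libraries for 99.98% of genes. Because a separate animal would add its own spread, F3 estimates of the members are given with and without it, and F3 sGC medians below are over the other 6 libraries.

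Most collagen genes had estimates below control in sGC animals of F1 and F2 and above control in those of F3, but no member passed the test in any generation. In F1, 25 of 34 members tested had a log2 fold change (sGC against control) below 0, where 51.7% of all genes did. In F2 it was 27 of 35, where 50.3% of all genes did. In F3, 26 of 34 were above 0, where 51.7% of all genes were, and 29 of 34 without replicate 5, where 52.2% were. When 1 library was left out, members below 0 ranged from 20 (without sGC replicate 5) to 26 in F1. They ranged from 23 to 29 in F2 and from 2 to 9 in F3. The median log2 fold change of the members was -0.10 in F1, -0.10 in F2 and 0.11 in F3, against -0.01, -0.00041 and 0.0048 over all genes tested. With 1 library left out, these medians ranged from -0.17 (without sGC replicate 1) to -0.07 (without control replicate 1) in F1, from -0.16 (without sGC replicate 5) to -0.06 (without sGC replicate 4) in F2, and from 0.06 (without control replicate 1) to 0.15 (without sGC replicate 4) in F3.

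Counted at an adjusted p below 0.05 in edgeR's quasi-likelihood test, 0 members were called in F1, where 2.08% of all genes were, 0 in F2, where 0% of all genes were, and 0 in F3, where 5.04% of all genes were. At an unadjusted p below 0.05 there were 9 members in F1 (19.6% of all genes), 3 in F2 (6.64%) and 7 in F3 (21.1%). Without F3 sGC replicate 5 there were 6 in F3, where 17.8% of all genes reached that threshold. In F1, 8 of 34 members tested were lower in sGC animals at an unadjusted p below 0.05, where 9.06% of all genes were. Among those at that threshold in F1, 8 of 9 members were lower, and 1031 of 2230 genes. In F1, the likelihood ratio test called 3 members (COL3A1, COL4A3 and COL6A2), DESeq2 called 2 (COL4A3 and COL6A2), and a fit of all generations together called 5 (COL1A1, COL1A2, COL3A1, COL4A3 and COL6A2). Of all genes, these fits called 598 of 11377, 658 of 11377 and 852 of 11390 in F1. The same 3 fits called 0 members in F2, where they called 6, 12 and 0 genes. In F3 they called 0 members, and 788, 944 and 334 genes. For 0 members did control and sGC libraries separate without overlap, where 4.36% of all genes did so in F1, 0.394% in F2 and 2.61% in F3.

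**Figure D1:**
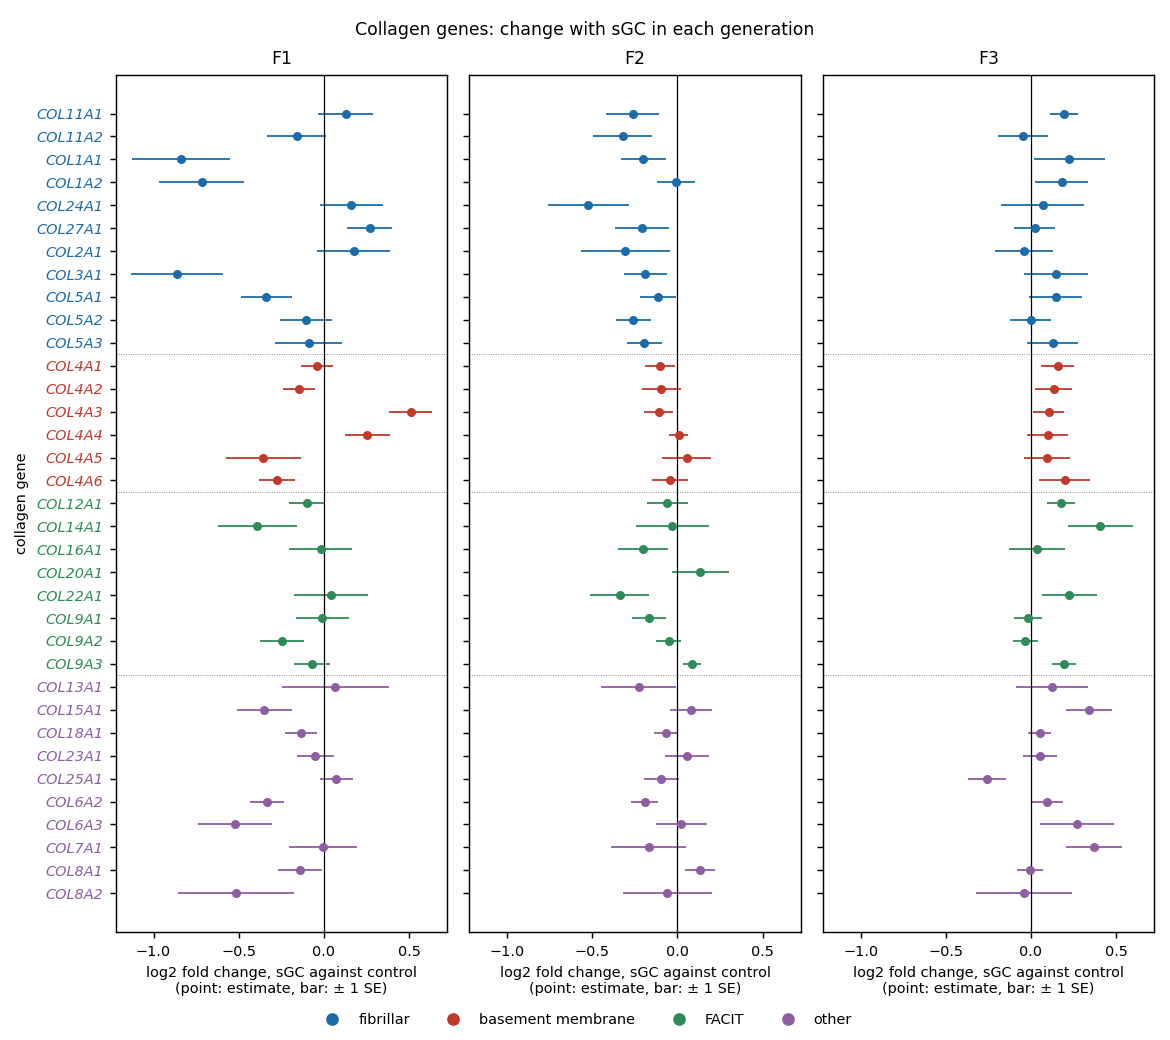
Log2 fold change of sGC against control for each collagen gene tested, by class, in F1, F2 and F3, with estimates as points and ± 1 SE as bars. COL3A1 (-0.86), COL1A1 (-0.84) and COL1A2 (-0.72) lie lowest in F1, all 11 fibrillar genes lie below 0 in F2, and all 6 basement membrane genes lie above 0 in F3.

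The main fibrillar collagens had the lowest estimates of the family in F1. COL1A1, which encodes the alpha 1 chain of type I collagen, ranged from 15.4 to 67.8 CPM (median 34.1) in F1 controls, and the sGC libraries had 20.3, 16, 15.7, 27.4 and 26.1 CPM. For COL1A1, 5 of 6 controls lay above every sGC library and the remaining control lay below all of them. Its log2 fold change was -0.84 ± 0.29 (SE), with an adjusted p of 0.132. In F2, COL1A1 ranged from 24.5 to 35.4 CPM (median 26.9) in controls and from 15.8 to 29.7 CPM (median 26.6) in sGC animals, with a log2 fold change of -0.20 ± 0.13. In F3 it ranged from 15.7 to 43.5 CPM (median 28.3) and from 22.8 to 48.2 CPM (median 35.1), with a log2 fold change of 0.23 ± 0.21 (0.25 ± 0.22 without replicate 5). The groups overlapped in F2 and in F3.

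COL1A2, the alpha 2 chain of type I collagen, ranged from 24.5 to 83.1 CPM (median 44.2) in F1 controls, and the sGC libraries had 30.1, 20.9, 23.8, 41.1 and 31.7 CPM. Here too 5 of 6 controls lay above every sGC library, and the lowest control lay among them. On the log2 scale sGC animals differed by -0.72 ± 0.25, with an adjusted p of 0.132. In F2 the medians were 40.5 CPM in controls and 42.1 in sGC animals (-0.01 ± 0.11 on the log2 scale), and in F3 they were 41.4 and 47.9 CPM (0.18 ± 0.15, or 0.21 ± 0.16 without replicate 5).

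COL3A1, which encodes type III collagen, the companion of type I in vessel walls and other soft tissue, ranged from 15.8 to 48.8 CPM (median 27.9) in F1 controls, and the sGC libraries had 17.4, 13.5, 11.4, 25.3 and 19.7 CPM. For this gene 4 of 6 controls lay above every sGC library and 2 sGC libraries lay below every control. COL3A1 had a log2 fold change of -0.86 ± 0.27 in F1 (adjusted p 0.103). In F2 the medians were 26 CPM in controls and 22.9 in sGC animals (-0.19 ± 0.12 on the log2 scale), and in F3 they were 23.3 and 25.8 CPM (0.15 ± 0.19, or 0.17 ± 0.20 without replicate 5).

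F1 control replicate 2 was the highest control for COL1A1, COL1A2 and COL3A1, and replicate 3 the lowest. Without replicate 2 the log2 fold changes were -0.57, -0.48 and -0.68. Libraries numbered 32 to 36 in the labels lie outside the run of numbers of their generations. All are sGC libraries, and no control has such a number. They are sGC replicate 6 in F2 and sGC replicates 5 and 6 in F3. In F1 they are sGC replicates 4 and 5. Both had more COL1A1, COL1A2 and COL3A1 than the other 3 sGC libraries of F1, and without them the log2 fold changes were -1.11, -0.95 and -1.16, with 0 members called.

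**Figure D2:**
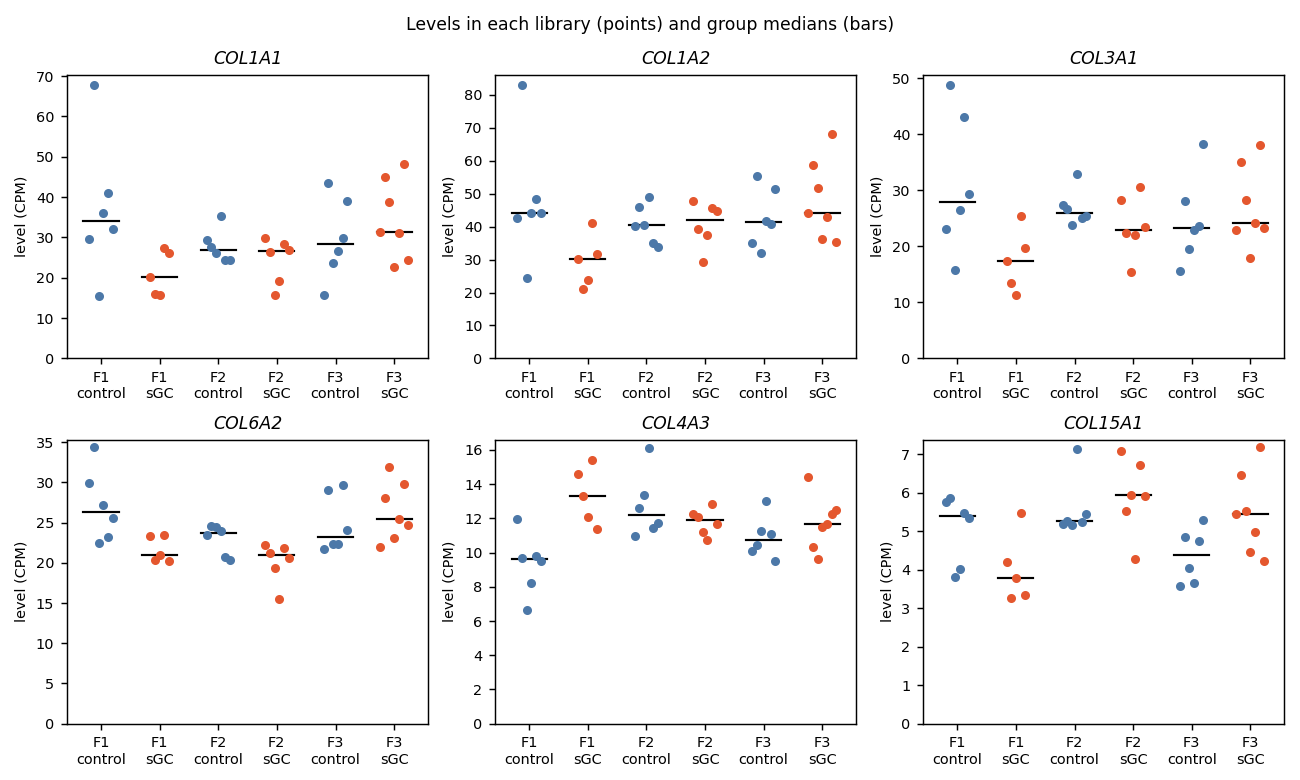
Levels (CPM) of 6 collagen genes in every library, with control in blue, sGC in red and bars at the group medians. In F1 the sGC libraries sit mostly below the controls for COL1A1, COL1A2, COL3A1 and COL6A2 and mostly above them for COL4A3, and control and sGC overlap in every panel. F3 sGC includes replicate 5.

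The minor fibrillar collagens, which are built into larger fibrils and limit their width, had estimates closer to 0 in F1. COL5A1, of type V, ranged from 6.47 to 13.9 CPM (median 10.7) in F1 controls, and the sGC libraries had 9.13, 7.61, 7.59, 8.89 and 7.97 CPM. All 5 lay between the lowest control and the other 5 controls. COL5A1 had log2 fold changes of -0.34 ± 0.15 in F1, -0.11 ± 0.11 in F2 and 0.14 ± 0.15 in F3 (0.16 ± 0.16 without replicate 5), with an adjusted p of 0.234 in F1. COL5A3, another type V chain, had -0.09 ± 0.20 in F1, -0.19 ± 0.10 in F2 and 0.13 ± 0.15 in F3 (0.13 ± 0.16 without replicate 5).

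COL5A2, also of type V, had the smallest p of the family in F2. It ranged from 13.2 to 20.005 CPM (median 17.9) in F2 controls and from 11.6 to 16.9 CPM (median 14.8) in sGC animals. All 6 sGC libraries lay below the control mean, and 4 of 6 controls lay above every sGC library. In F2 its log2 fold change was -0.26 ± 0.10, with an adjusted p of 0.711. The estimate was -0.10 ± 0.15 in F1 and -0.0028 ± 0.12 in F3 (0.01 ± 0.13 without replicate 5).

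COL11A1, of type XI, ranged from 63.6 to 93.4 CPM (median 84.2) in F3 controls and from 79.2 to 108 CPM (median 94.2) in sGC animals. For COL11A1, 4 of 7 sGC libraries, replicate 5 included, lay above every control, and the others among the controls. Log2 fold changes were 0.20 ± 0.08 in F3 (adjusted p 0.190), or 0.19 ± 0.09 (adjusted p 0.273) without replicate 5, -0.26 ± 0.16 in F2 and 0.13 ± 0.16 in F1. COL24A1, a minor fibrillar collagen, ranged from 6.3 to 9.7 CPM (median 8.53) in F2 controls and from 1.29 to 6.87 CPM (median 6.64) in sGC animals, with a log2 fold change of -0.52 ± 0.24 (adjusted p 0.740). Its lowest library, F2 sGC replicate 4, stood far from the next at 5.46 CPM, and without it the log2 fold change was -0.31. It was 0.16 ± 0.19 in F1 and 0.07 ± 0.24 in F3 (0.07 ± 0.26 without replicate 5). COL27A1, a fibrillar collagen known from cartilage, had 0.27 ± 0.13 in F1, -0.21 ± 0.16 in F2 and 0.02 ± 0.12 in F3 (0.02 ± 0.13 without replicate 5). As a class, 7 of 11 fibrillar genes had estimates below 0 in F1, 11 of 11 in F2 and 3 of 11 in F3, with median log2 fold changes of -0.10, -0.21 and 0.13. Leaving out F3 sGC replicate 5, 2 of 11 were below 0 in F3, with a median of 0.13.

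Among the basement membrane genes, COL4A3 had the smallest p of the family in F1. It encodes the alpha 3 chain of type IV collagen, which with alpha 4 and alpha 5 makes the network best known from the kidney glomerulus. COL4A3 ranged from 6.64 to 11.9 CPM (median 9.6) in F1 controls, and the sGC libraries had 14.6, 13.3, 12.1, 15.4 and 11.4 CPM. In 4 of 5 sGC libraries it was above every control, and the lowest sGC library lay just below the highest control. COL4A3 had a log2 fold change of 0.51 ± 0.13 (adjusted p 0.0578). In F2 the medians were 12.2 CPM in controls and 11.9 in sGC animals (-0.11 ± 0.09 on the log2 scale), and in F3 they were 10.8 and 11.9 CPM (0.10 ± 0.09, or 0.11 ± 0.10 without replicate 5).

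COL4A4, whose gene lies head to head with COL4A3 and whose chain joins it, ranged from 4.25 to 5.73 CPM (median 5.01) in F1 controls, and the sGC libraries had 6.69, 6.63, 5.58, 7.08 and 4.36 CPM. COL4A4 had log2 fold changes of 0.26 ± 0.13 in F1, 0.01 ± 0.06 in F2 and 0.10 ± 0.12 in F3 (0.11 ± 0.13 without replicate 5), with an adjusted p of 0.301 in F1. COL4A5, the alpha 5 chain, had -0.36 ± 0.22 in F1, 0.05 ± 0.14 in F2 and 0.10 ± 0.14 in F3 (0.10 ± 0.15 without replicate 5). COL4A6, which joins alpha 5 in other basement membranes, ranged from 7.77 to 10.4 CPM (median 9.19) in F1 controls, and the sGC libraries had 6.88, 6.3, 8.04, 8.54 and 8.59 CPM. Of the COL4A6 controls, 5 of 6 lay above every sGC library. Its log2 fold change was -0.27 ± 0.10 in F1, -0.04 ± 0.11 in F2 and 0.20 ± 0.15 in F3 (0.20 ± 0.16 without replicate 5), with an adjusted p of 0.172 in F1.

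COL4A1 and COL4A2 encode the chains found in nearly all basement membranes, the capillary wall included. COL4A1 medians were 50.5 CPM in F1 controls and 48.2 in F1 sGC animals, 49.7 and 46.2 in F2, and 47.8 and 51 in F3. COL4A1 had log2 fold changes of -0.04 ± 0.09 in F1, -0.10 ± 0.09 in F2 and 0.16 ± 0.10 in F3 (0.15 ± 0.10 without replicate 5). For COL4A2 it was -0.15 ± 0.09 in F1, -0.09 ± 0.11 in F2 and 0.13 ± 0.11 in F3 (0.13 ± 0.12 without replicate 5). Both genes stayed within 2 SE of 0 in each generation, and their groups overlapped. As a class, 4 of 6 basement membrane genes had estimates below 0 in F1, 4 of 6 in F2 and 0 of 6 in F3, with median log2 fold changes of -0.09, -0.07 and 0.12. Without F3 sGC replicate 5, 0 of 6 were below 0 in F3, with a median of 0.12.

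Among the FACIT collagens, COL9A3 had the smallest p of the family in F3. It encodes a chain of type IX collagen, which coats the fibrils of cartilage. COL9A3 ranged from 65.8 to 90.9 CPM (median 82.5) in F3 controls and from 87.2 to 108 CPM (median 88.6) in sGC animals. All 7 sGC libraries lay above the control mean, and the 3 highest of them, replicate 5 included, above every control. The COL9A3 log2 fold change was 0.19 ± 0.07, with an adjusted p of 0.121, and without replicate 5 it was 0.19 ± 0.07 (0.188). It was -0.07 ± 0.10 in F1 and 0.09 ± 0.05 in F2.

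COL12A1, which links neighbouring fibrils, ranged from 18.8 to 24.2 CPM (median 23) in F3 controls and from 21.7 to 31.4 CPM (median 24.6) in sGC animals. In 3 of 7 sGC libraries COL12A1 was above every control, and the groups overlapped otherwise. Its log2 fold changes were -0.10 ± 0.11 in F1, -0.06 ± 0.12 in F2 and 0.18 ± 0.08 in F3 (0.19 ± 0.09 without replicate 5), with an adjusted p of 0.224 in F3, or 0.253 without replicate 5. COL16A1, a minor FACIT collagen, had -0.02 ± 0.18 in F1, -0.20 ± 0.15 in F2 and 0.03 ± 0.17 in F3 (0.04 ± 0.18 without replicate 5). As a class, 6 of 7 FACIT genes tested had estimates below 0 in F1, 6 of 8 in F2 and 2 of 7 in F3, with median log2 fold changes of -0.07, -0.06 and 0.18. Leaving out F3 sGC replicate 5, 2 of 7 were below 0 in F3, with a median of 0.19.

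Among the other collagens, COL6A2 was among the 3 smallest p values in both F1 and F2. It encodes the alpha 2 chain of type VI collagen, the beaded filaments around cells and basement membranes. COL6A2 ranged from 22.4 to 34.4 CPM (median 26.4) in F1 controls, and the sGC libraries had 23.4, 20.3, 20.9, 23.5 and 20.2 CPM. In F1, 4 of 6 controls lay above every sGC library and 3 sGC libraries below every control. COL6A2 had a log2 fold change of -0.33 ± 0.10 in F1 (adjusted p 0.0970). In F2 it ranged from 20.4 to 24.6 CPM (median 23.7) in controls and from 15.4 to 22.2 CPM (median 20.9) in sGC animals, with a log2 fold change of -0.19 ± 0.08 (adjusted p 0.711). All 6 sGC libraries of F2 lay below the control mean. The F3 value was 0.09 ± 0.10 (0.10 ± 0.10 without replicate 5).

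COL6A3, the alpha 3 chain of type VI, ranged from 4.31 to 10.8 CPM (median 7.94) in F1 controls, and the sGC libraries had 7.06, 3.59, 4.36, 7.01 and 6.0 CPM. Again 5 of 6 controls lay above every sGC library. Its log2 fold changes were -0.52 ± 0.22 in F1, 0.02 ± 0.15 in F2 and 0.27 ± 0.22 in F3 (0.31 ± 0.23 without replicate 5), with an adjusted p of 0.205 in F1.

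COL15A1 and COL18A1 are proteoglycan collagens of basement membranes, and a fragment of COL18A1 is endostatin. COL15A1 ranged from 3.8 to 5.87 CPM (median 5.4) in F1 controls, and the sGC libraries had 4.19, 3.26, 3.8, 5.48 and 3.34 CPM. In F3 it ranged from 3.57 to 5.3 CPM (median 4.38) in controls and from 4.22 to 7.18 CPM (median 5.49) in sGC animals. The groups overlapped in both generations. COL15A1 had log2 fold changes of -0.35 ± 0.16 in F1, 0.08 ± 0.12 in F2 and 0.34 ± 0.14 in F3 (0.36 ± 0.14 without replicate 5), with adjusted p values of 0.249 in F1 and 0.157 in F3, the latter 0.198 without replicate 5. COL18A1 had -0.13 ± 0.09 in F1, -0.07 ± 0.07 in F2 and 0.05 ± 0.07 in F3 (0.06 ± 0.07 without replicate 5).

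COL25A1, a transmembrane collagen made by neurons and found in amyloid plaques, ranged from 55.6 to 85.3 CPM (median 72.7) in F3 controls and from 41.4 to 70.2 CPM (median 59.2) in sGC animals. All 7 sGC libraries lay below the control mean, and 3 of 6 controls lay above every sGC library. COL25A1 had log2 fold changes of -0.26 ± 0.11 in F3 (adjusted p 0.186), or -0.25 ± 0.12 (adjusted p 0.279) without replicate 5, 0.07 ± 0.10 in F1 and -0.10 ± 0.10 in F2. COL8A1, a short-chain collagen of endothelium, had -0.14 ± 0.13 in F1, 0.13 ± 0.09 in F2 and -0.004 ± 0.08 in F3 (0.01 ± 0.08 without replicate 5). As a class, 8 of 10 other collagens tested had estimates below 0 in F1, 6 of 10 in F2 and 3 of 10 in F3, with median log2 fold changes of -0.14, -0.06 and 0.07. In F3 without sGC replicate 5, 1 of 10 were below 0, with a median of 0.08.

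The remaining 13 members were outside the rule for genes described in full, and none of those tested passed. COL7A1, of the anchoring fibrils, and COL14A1, a FACIT collagen, are named here after their values were seen. COL7A1 ranged from 4.34 to 10.1 CPM (median 5.86) in F3 controls and from 6.75 to 11.1 CPM (median 7.99) in sGC animals, with a log2 fold change of 0.37 ± 0.16 (adjusted p 0.203), or 0.36 ± 0.17 (0.290) without sGC replicate 5. It was the only member called when F3 control replicate 5, its highest control, was left out (log2 fold change 0.55, adjusted p 0.0326). In that fit 500 of 11373 genes were called. COL14A1 ranged from 0.894 to 1.84 CPM (median 1.14) in F3 controls and from 1.22 to 2.41 CPM (median 1.6) in sGC animals and had a log2 fold change of 0.41 ± 0.19, or 0.44 ± 0.20 without sGC replicate 5. Among those tested, log2 fold changes ran from -0.52 (COL8A2) to 0.18 (COL2A1) in F1, from -0.34 (COL22A1) to 0.13 (COL20A1) in F2 and from -0.05 (COL11A2) to 0.41 (COL14A1) in F3, the genes at each end being named after their values were seen. COL17A1 in every generation and COL6A6 in F2 had too few reads to be tested.

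Whether the effect of sGC differed between generations was tested as an interaction over all 36 libraries, with 34 members tested. At an adjusted p below 0.05, 0 members were called between F3 and F1, where 0% of all genes were, 0 between F2 and F1, where 0.29% of all genes were, and 0 between F3 and F2, where 0% of all genes were. At an unadjusted p below 0.05 there were 12 members between F3 and F1 (13.1% of all genes), 5 between F2 and F1 (16.8%) and 3 between F3 and F2 (9.08%). Without F3 sGC replicate 5 there were 11 between F3 and F1 (11.2% of all genes) and 1 between F3 and F2 (8.05%). The likelihood ratio test called 1 member, COL4A3 between F2 and F1, where it called 168 of 11390 genes, and DESeq2 called 0 members. Each pair of these contrasts shares the libraries of a generation.

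Between F3 and F1, the estimated sGC effect on COL1A1 was 1.06 ± 0.34 higher on the log2 scale in F3 (adjusted p 0.197), on COL3A1 1.01 ± 0.32 higher (0.181), on COL1A2 0.89 ± 0.28 higher (0.173) and on COL15A1 0.68 ± 0.21 higher (0.168). Without F3 sGC replicate 5 these differences were 1.08 ± 0.35 for COL1A1, 1.03 ± 0.32 for COL3A1, 0.92 ± 0.28 for COL1A2 and 0.71 ± 0.21 for COL15A1, with adjusted p values of 0.253, 0.235, 0.227 and 0.212. The F3 to F1 difference for COL6A2 was 0.42 ± 0.14, with an adjusted p of 0.210, or 0.43 ± 0.15 (0.281) without replicate 5. In all, 27 of 34 members had a higher effect in F3 than in F1, where 48.1% of all genes did, and 31 of 34 a higher effect in F3 than in F2, where 51.2% did. Leaving out F3 sGC replicate 5, 7 and 2 members had a lower effect in F3. Without libraries 32 to 36, COL1A2 and COL3A1 passed the threshold between F3 and F1, among 431 of 11418 genes that did. Without F1 sGC replicate 4 alone, COL15A1, COL1A2 and COL3A1 passed it, among 454 of 11403 genes. COL4A3 had estimates of the opposite sign, with an effect difference of -0.63 ± 0.15 from F1 to F2 (adjusted p 0.0502, called without F1 control replicate 1, F2 control replicate 1, F2 control replicate 5 or F2 sGC replicate 6) and -0.41 ± 0.15 from F1 to F3 (adjusted p 0.244), or -0.41 ± 0.16 (0.322) without F3 sGC replicate 5.

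In control animals, COL4A4 set F2 apart from both other generations. Between F2 and F1 controls, 7 of 34 members passed the test, where 44.9% of all genes did, and between F3 and F2 controls 6 of 34, where 38% of all genes did. Between F3 and F1 controls 0 of 34 passed, where 0.0176% of all genes did, with 4 at an unadjusted p below 0.05 (7.7% of all genes) and 0 called by the likelihood ratio test or DESeq2. COL4A4 ranged from 4.25 to 5.73 CPM (median 5.01) in F1 controls, from 22.4 to 27.9 CPM (median 26.3) in F2 and from 4.19 to 6.52 CPM (median 5.41) in F3. F2 controls did not overlap those of F1 or of F3, where 27.1% and 21% of all genes did not overlap. The log2 difference was 2.37 ± 0.10 from F1 to F2 (adjusted p 2.32e-22) and -2.28 ± 0.10 from F2 to F3 (adjusted p 7.62e-22).

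The sGC libraries followed their generation at COL4A4 too, with 4.36 to 7.08 CPM in F1, 24.3 to 28.2 in F2 and 4.20 to 6.75 in F3. Of libraries 32 to 36, the only one from F2 had 27.2 CPM of COL4A4, and the other 4 had between 4.36 and 7.08 CPM. ITGA10, a chain of a collagen-binding integrin named here after its values were seen, had the reverse pattern, from 25 to 29.4 CPM in F1 controls, from 2.94 to 3.57 in F2 and from 24.3 to 27.9 in F3. Generation and count table cannot be told apart in these contrasts.

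**Figure D3:**
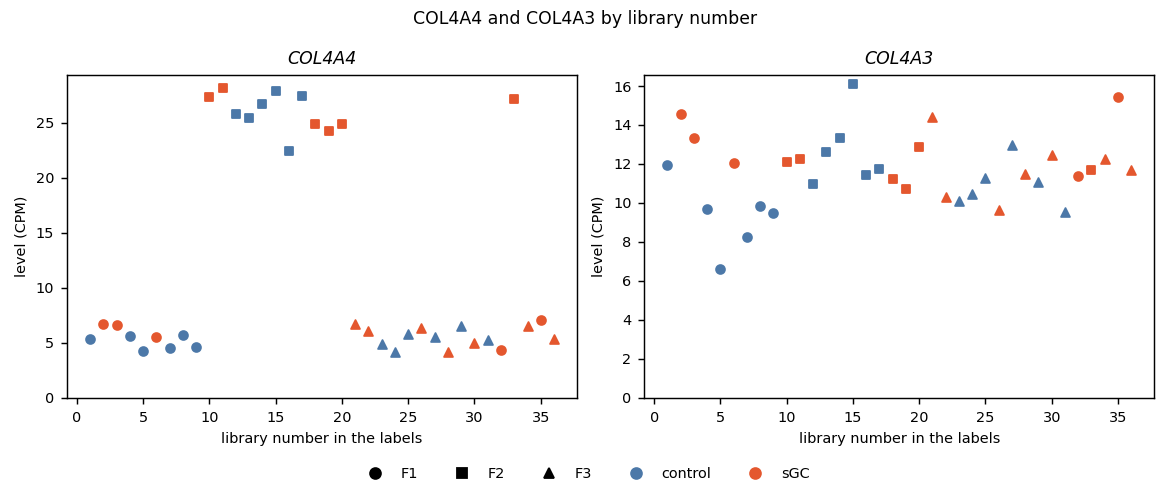
Levels (CPM) of COL4A4 and COL4A3 against the library number in the labels, with marker shape for generation and colour for treatment. Every F2 library lies between 22.4 and 28.2 CPM of COL4A4 and every F1 or F3 library between 4.19 and 7.08, libraries 32 to 36 included, whereas COL4A3 shows no gap of that size.

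The other members called between F2 and F1 controls were all higher in F2, as was COL4A4, and 22.5% of all genes were called higher. COL24A1 rose by 0.88 ± 0.25 (adjusted p 0.00411) on the log2 scale, and its F2 controls, from 6.3 to 9.7 CPM (median 8.53), did not overlap the F1 controls, from 3.8 to 5.63 CPM (median 4.22). COL27A1 rose by 0.51 ± 0.15 (adjusted p 0.00731), COL4A3 by 0.46 ± 0.11 (adjusted p 5.14e-04) and COL11A1 by 0.38 ± 0.15 (adjusted p 0.0405). COL5A2 rose by 0.37 ± 0.13 (adjusted p 0.0219) and COL25A1 by 0.34 ± 0.12 (adjusted p 0.0147). Without F2 control replicate 4, 4 members passed (COL24A1, COL27A1, COL4A3 and COL4A4). COL11A1 lost this call in 6 of 12 fits with 1 library left out (without F1 control replicate 2, 5 or 6 or F2 control replicate 2, 3 or 4, adjusted p up to 0.140). COL5A2 lost it in 4 (without F1 control replicate 3 or 5 or F2 control replicate 1 or 4, up to 0.0656) and COL25A1 in 1 (without F2 control replicate 4, 0.0640).

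The members called between F2 and F3 controls besides COL4A4 were all lower in F3, as was COL4A4, and 19% of all genes were called lower. COL24A1 had a log2 difference of -0.68 ± 0.25 (adjusted p 0.0280), COL5A3 of -0.58 ± 0.17 (adjusted p 0.00492) and COL15A1 of -0.37 ± 0.14 (adjusted p 0.0373). For COL11A1 it was -0.37 ± 0.15 (adjusted p 0.0497) and for COL4A6 -0.33 ± 0.13 (adjusted p 0.0431). Leaving out F2 control replicate 4, F3 control replicate 1 or F3 control replicate 3 left 3 members each time, COL4A4 and COL5A3 among them. COL11A1 lost this call in 9 of 17 alternatives, DESeq2 and 8 of 12 fits with 1 library left out (all but those without F2 control replicate 5 or 6 or F3 control replicate 3 or 5, adjusted p up to 0.164). COL4A6 lost it in 7, which were the fits without F2 control replicate 2, 4 or 6, F3 control replicate 3, 4 or 5, or libraries 32 to 36 (up to 0.148). COL15A1 lost it in 4 (without F2 control replicate 4 or F3 control replicate 1, 3 or 4, up to 0.132) and COL24A1 in 4 (without F2 control replicate 1 or F3 control replicate 1, 2 or 3, up to 0.0878). COL4A4 and COL5A3 passed in all 17 alternatives.

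Collagen levels varied more between animals of a group than the levels of most genes. In F1 controls the coefficient of variation of the members had a median of 19.6%, against 6.44% for all genes, and 34 of 35 members lay above the latter. In the other 5 groups the median of the members lay between 14.4% and 22.5% and that of all genes between 6.08% and 8.83%, with 33 to 35 of 35 members above the median of all genes. COL1A1, COL1A2 and COL3A1 had 47%, 40.1% and 40.1% in F1 controls, and 14.8%, 14.7% and 11.9% in F2 controls. By class, the F1 control medians were 24.1% for fibrillar, 12.7% for basement membrane and 18.4% for FACIT genes. Members had a median of 207.5 to 290 reads per library in the groups and all genes 547 to 609, and genes were not matched for reads.

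**Figure D4:**
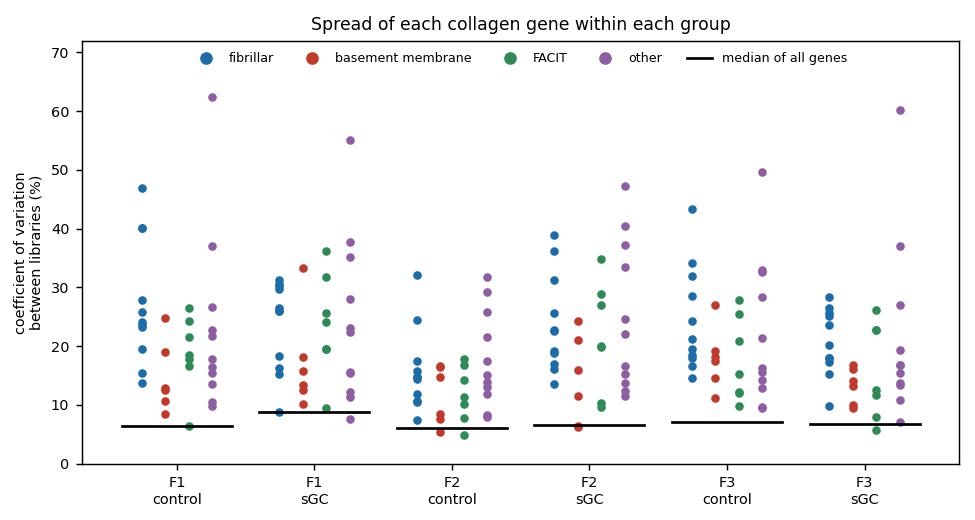
Coefficient of variation between libraries of a group (percent) for each collagen gene with a row in all tables, by group and class, with a line at the median of all genes and F3 sGC replicate 5 included. In every group at least 33 of 35 members lie above the line, and COL8A2 in F1 controls is the highest at 62.4%.

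Single animals were high or low for many members at once. F1 control replicate 3 was the lowest control for 19 of 35 members, where it was lowest for 19.3% of all genes. F1 sGC replicate 1 was the highest sGC library for 17 members (20.1% of all genes), and F1 sGC replicate 5 the lowest for 16 (16.7%). In F2, sGC replicate 4 was lowest for 21 members (21.4% of all genes) and sGC replicate 5 highest for 17 (17.8%). In F3, control replicate 1 was lowest for 16 members (18.5% of all genes) and sGC replicate 6 highest for 13 (22.6%). In the other direction, F3 control replicate 5 was highest for 12 (20.8%) and F3 sGC replicate 4 lowest for 11 (16.9%).

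Markers of meningeal fibroblasts, the cells of the brain's coverings that make type I and III collagen, had lower estimates in F1, as these collagens did. Of 23 markers, 19 had a row in all tables, none of these was at 0 in a library, and FOXC1, PRG4, SLC6A13 and TWIST1 were not analysed here. In F1, 18 of 19 had a log2 fold change below 0, where 51.7% of all genes did, with a median of -0.64, and 11 had an unadjusted p below 0.05, where 19.6% of all genes did. DCN, a collagen-binding proteoglycan and one of these markers, ranged from 32.8 to 63.4 CPM in F1 controls and from 10.4 to 33.3 in sGC animals, and changed by -0.995 ± 0.24 (adjusted p 0.0494). LUM, another, ranged from 8.91 to 11.8 and from 6.47 to 8.82 CPM without overlap, and changed by -0.50 ± 0.10 (adjusted p 0.0258). Both calls depended on which libraries were kept. With 1 library left out, DCN was lost in 9 of 11 fits (adjusted p 0.0231 to 0.113) and LUM in 6 of 11 (0.0127 to 0.0728). DCN passed only without sGC replicate 1 or 4, and LUM was lost without control replicate 1, 2, 4 or 6 or sGC replicate 2 or 5. IGF2, a growth factor of the leptomeninges, and SLC47A1, a transporter, had estimates of -1.42 ± 0.36 and -2.13 ± 0.58 in F1 (adjusted p 0.0585 and 0.0734).

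The summed level of the 19 markers ranged from 239.7 to 439 CPM in F1 controls and from 208 to 302 in sGC animals, where the sum of COL1A1, COL1A2 and COL3A1 ranged from 55.7 to 199.7 and from 50.4 to 93.9 CPM. In F2 the markers summed from 263 to 320.1 CPM in controls and from 234 to 348 in sGC animals, with 9 of 18 estimates below 0. In F3 they summed from 244 to 321 and from 245 to 369 CPM, with 16 of 19 estimates above 0 and a median log2 fold change of 0.15, and without F3 sGC replicate 5 16 of 19 and 0.15. The part of meningeal tissue in the collagen values was not tested.

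**Figure D5:**
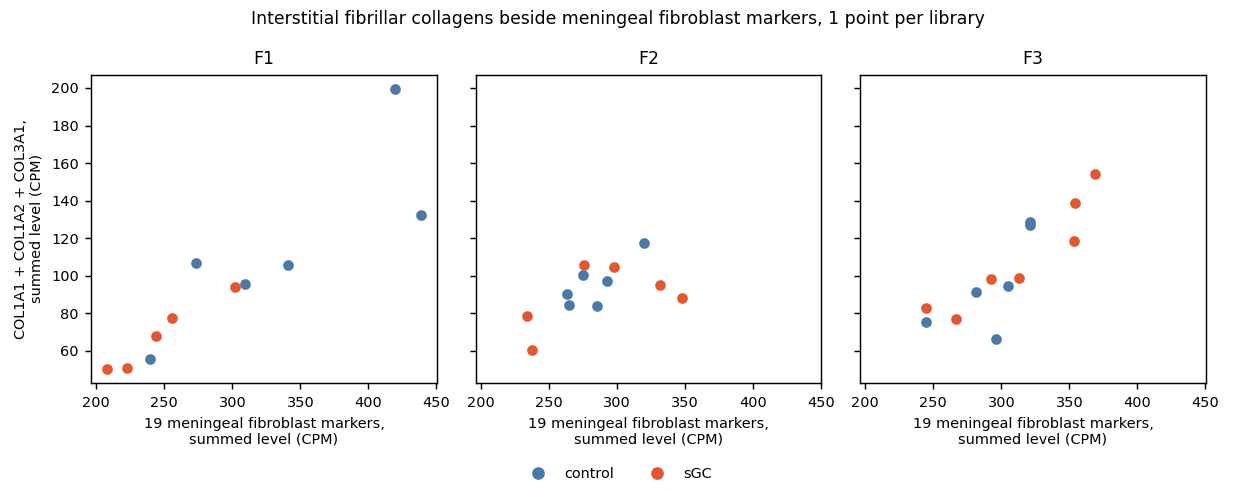
Summed level of COL1A1, COL1A2 and COL3A1 (CPM) against the summed level of 19 meningeal fibroblast markers (CPM), 1 point per library, control in blue and sGC in red. F1 controls reach 439 CPM of markers and 199.7 CPM of these collagens, and F1 sGC libraries stay at or below 302 and 93.9 CPM.

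Markers of mural cells, the pericytes and smooth muscle cells of vessels, had higher estimates in F3 sGC animals. All 9 mural cell markers tested in F3 had a log2 fold change above 0, with a median of 0.18 (9 of 9 and 0.19 without F3 sGC replicate 5), where 51.7% of all genes were above 0, against 5 of 9 in F1 and 3 of 9 in F2. PDGFRB, the receptor of pericytes, ranged from 35.5 to 42.6 CPM in F3 controls and from 40.4 to 50.3 in sGC animals and changed by 0.20 ± 0.05 (adjusted p 0.0395), a call lost without F3 sGC replicate 5 (adjusted p 0.0734). With any other single library left out its adjusted p ranged from 0.0274 to 0.0800, and it passed only without control replicate 1 or 5 or sGC replicate 4 or 7. ABCC9, a channel subunit of pericytes, had 0.44 ± 0.12 in F1 (adjusted p 0.0723). The F1 estimates of the 9 mural markers ran from -0.63 to 0.44, with 4 below 0. ACTA2, a smooth muscle marker of this list, is named here after its values were seen. It ranged from 11.8 to 30.5 CPM (median 22.6) in F1 controls and from 8.91 to 20.1 (median 13.3) in sGC animals. The 10 mural markers summed from 282 to 378 CPM in F3 controls and from 341 to 384 in sGC animals, and none was at 0 in a library. In F1 the mural markers summed from 252 to 378 and from 269 to 419 CPM. Of 10 endothelial markers, none at 0, 8 had estimates above 0 in F1 and 8 in F3 (8 without F3 sGC replicate 5), and they summed from 385 to 415 and from 385 to 459.6 CPM in F3, where ERG, an endothelial transcription factor, had 0.20 ± 0.07 and TIE1, an endothelial receptor, 0.21 ± 0.08, or 0.21 ± 0.07 and 0.21 ± 0.09 without F3 sGC replicate 5.

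Of 10 choroid plexus markers, 2 had a row in all tables. KL had -0.18 ± 0.17 and FOLR1 -0.51 ± 0.20 in F1. They summed from 19.9 to 42.5 CPM (median 22.7) in F1 controls and from 19.1 to 23.1 (median 21.4) in sGC animals. The upper end was F1 control replicate 5, with 556 reads of KL and 252 of FOLR1. Other F1 controls had 219 to 288 reads of KL and 90 to 179 of FOLR1. TTR, the defining transport protein of choroid plexus, had a row in F2 only, where it ranged from 2.79 to 448 CPM in controls and from 0.920 to 643 in sGC animals, with medians of 19.05 and 19.03. The TTR level thus differed by over 100 times between F2 libraries, with F2 control replicate 1 and F2 sGC replicates 2 and 5 highest and F2 sGC replicate 3 lowest, and 6 of the 10 markers were not analysed here. In F2, KL and FOLR1 summed from 22.2 to 29.4 CPM in controls and from 21.1 to 31.9 in sGC animals. Their sum thus spanned a far smaller range than TTR in the same libraries. SLC4A5, a bicarbonate transporter of choroid plexus, had a row in F2 and F3, with 61 reads in F3 control replicate 5 and 5 to 16 in the other F3 libraries. All 5 oligodendrocyte markers tested had estimates below 0 in F1, with a median of -0.21, and 3 of 5 were above 0 in F3, with and without F3 sGC replicate 5. MAG and MOG, proteins of the myelin sheath, had -0.32 ± 0.13 and -0.29 ± 0.12 in F1. Of 9 striatal and thalamic neuron markers, 6 had estimates below 0 in F1 and 5 above 0 in F3 (also 5 without F3 sGC replicate 5), and of 11 hippocampal neuron markers 6 were below 0 in F1 and 8 in F3 (7 without F3 sGC replicate 5). Of these neuronal genes, 3 passed the test, RORA in F1 (0.37 ± 0.05, adjusted p 0.00434), LEF1 in F3 (0.23 ± 0.05, 0.0153) and NR3C2 in F3 (-0.18 ± 0.03, 0.00752), where 2.08% of all genes passed in F1 and 5.04% in F3. Without F3 sGC replicate 5 the adjusted p was 0.0366 for LEF1 and 0.0225 for NR3C2. LEF1 lost its call in 3 of 19 alternatives, namely without libraries 32 to 36, with the replicate block and in a fit of all generations together (adjusted p up to 0.130). CAMK2A had 0.28 ± 0.09 in F1 (adjusted p 0.122). The part of any of these cells in the collagen values was not tested.

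Genes that serve collagen on its way to the matrix were counted next. Of the genes for folding and modification of the chains, 10 of 16 tested had estimates below 0 in F1, 5 of 18 in F2 and 9 of 16 in F3, with medians of -0.08, 0.02 and -0.01 (9 of 16 and -0.0048 in F3 without replicate 5), and 0 passed the test. The 2 smallest p values of each generation belonged to PPIB, a proline isomerase (-0.12 ± 0.05), and COLGALT1, a galactosyltransferase (-0.14 ± 0.07), in F1, to P4HA3, a prolyl hydroxylase (-0.19 ± 0.10), and FKBP14, an isomerase (-0.14 ± 0.09), in F2, and to P3H3 (0.41 ± 0.15) and FKBP10, another isomerase (0.17 ± 0.07), in F3. Without F3 sGC replicate 5 these were 0.43 ± 0.16 and 0.17 ± 0.07. Of the genes for export, propeptide removal and cross-linking, 6 of 13 were below 0 in F1, 10 of 13 in F2 and 3 of 13 in F3 (also 3 without replicate 5), and 0 passed. PCOLCE, which speeds removal of the C-terminal propeptide of fibrillar collagens, ranged from 4.25 to 9.24 CPM in F1 controls and from 1.85 to 5.21 in sGC animals, with a log2 fold change of -0.86 ± 0.23 (adjusted p 0.0681). LOXL2, a cross-linking enzyme, had 0.16 ± 0.06 in F1. The smallest p values in F2 were those of ADAMTS14, a procollagen protease (-0.39 ± 0.20), and LOXL3 (-0.18 ± 0.11), and in F3 those of BMP1, the protease that removes the C-terminal propeptide (0.15 ± 0.06), and ADAMTS3 (-0.18 ± 0.09), or 0.15 ± 0.06 and -0.17 ± 0.09 without replicate 5.

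Of the matrix proteins that bind collagen, 6 of 10 had estimates below 0 in F1, where DCN and LUM passed the test, 7 of 11 in F2 and 1 of 10 in F3, with and without replicate 5. SPARC, a collagen-binding glycoprotein, ranged from 1081 to 1322 CPM in F3 controls and from 1331 to 1503 in sGC animals, without overlap. It rose by 0.23 ± 0.05 on the log2 scale in F3 (adjusted p 0.0160, or 0.0334 without replicate 5, and lost in a fit of all generations together, 0.0907), and had 0.13 ± 0.12 in F1 and 0.14 ± 0.04 in F2. ASPN, of the family of small proteoglycans, had -0.17 ± 0.14 in F2. BGN, of the same family, had 0.17 ± 0.09 in F3 (0.19 ± 0.09 without replicate 5). Of 9 collagen receptors tested, 6 were below 0 in F1, 4 in F2 and 3 in F3, with and without F3 sGC replicate 5, and 0 passed. ITGA2, an integrin chain, had 0.44 ± 0.12 in F1 (adjusted p 0.0752), MRC2, an uptake receptor for collagen, -0.20 ± 0.06 (adjusted p 0.0903), and ADGRG1, a receptor of type III collagen, 0.12 ± 0.04 in F2 and 0.11 ± 0.05 in F3 (0.12 ± 0.06 without replicate 5). DDR2, a receptor tyrosine kinase for fibrillar collagen, had -0.27 ± 0.10 in F2 and 0.15 ± 0.09 in F3 (0.17 ± 0.10 without replicate 5).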

How the data were processed

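RNA-seq counts of 36 libraries were analysed, in 1 table of counts per gene for each generation, and all 3 tables were used. The deposited count values are whole numbers of reads per gene with no normalization. Per the labels and the study's methods the authors used the TruSeq RNA V2 kit, which does not mark strand, and the submitters' processing notes name Trimmomatic 0.32, TopHat2, Picard 1.93, R 3.2.3 and edgeR without their order. The counting tool, annotation and strand setting of the RNA tables are not given in the sources used here. The methylation tables hold the authors' own comparisons and were not used.

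Groups came from the labels. Each generation was fitted alone with edgeR 4.0.16 (R 4.3.3, limma 3.58.1), using its default filter on low counts, TMM scaling and the quasi-likelihood test, with Benjamini-Hochberg adjustment over all genes tested and a threshold of 0.05. Interactions and contrasts of controls came from 1 fit of 6 groups. Printed CPM were scaled by TMM over all 36 libraries. In figures and fits F3 sGC replicate 5 was included unless stated. Figures were drawn with matplotlib 3.10.9.

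Alternatives were the edgeR likelihood ratio test, DESeq2 1.42.0, RLE scaling, no filter, a joint fit, a replicate block, fits without libraries 32 to 36, and fits leaving out each library. On simulated counts with 200 genes changed, F1 (11377 genes) recovered 74.7% of changes of 1.5-fold and 89.4% of 2-fold, F2 (11414 genes) 96.6% and 93.7%, F3 (11359 genes) 93.0% and 97.1%, and the F3 to F1 interaction (11390 genes) 85.0% and 94.3%. At 1.25-fold the shares were 64.4%, 80.8%, 65% and 42.9%. The changed genes were drawn at random from all genes tested, and the members varied more than most genes. These shares therefore do not measure recovery for collagen genes.

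Animals had independent mothers per the methods, and p-values measure the spread between these libraries. Unless stated, the F3 fit and the fit of 6 groups include F3 sGC replicate 5, which lay 0.535 times sampling noise from its group mean. Over 91 pairs of libraries of 1 group, chi-square per degree of freedom was 2.13 to 29.4, so no pair was counted as 1 sample. A check of pairs cannot find a library that resembles the mean of several others. Replicate numbers did not pair the samples, since correlations of same-numbered deviations were -0.07 to 0.32 in F1, -0.39 to 0.19 in F2 and -0.31 to 0.03 in F3.

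The members and gene lists were chosen with earlier results of these data known. Values were given in full for 24 members, which were those called in a comparison, those with the 3 smallest p values in a generation, and a list fixed by name. The other 13 were given by counts and ranges. Of the other lists, genes called and those with the 2 smallest p values were named. Totals per library ran from 13507449 to 19767033 reads, and members had a median of 207.5 to 290 reads.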

Additional observations from a re-analysis of the deposited data

Results flagged for a closer look

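The 24 members given in full were tested with Dixon's criterion in each of the 6 groups, and 9 of these sets of libraries held a library far from the others, where chance gives about 1 in 20. COL12A1 was high in F1 control replicate 2, at 32.5 CPM with the next library at 23.4, and in F3 sGC replicate 6, at 31.4 CPM with the next at 25.6. COL8A1 was high in F1 control replicate 5 (26.3 CPM, next 17.8) and in F3 sGC replicate 6 (22.9 CPM, next 18.97). COL15A1 was high in F2 control replicate 4, at 7.14 CPM with the next at 5.45. COL16A1 was high in F3 sGC replicate 3, at 38.8 CPM with the next at 25.9. COL9A3 was high in F3 sGC replicate 4, at 107.99 CPM with the next at 92.3. COL24A1 was low in F2 sGC replicate 4, at 1.29 CPM with the next at 5.46. COL4A1 was low in F1 control replicate 3, at 37.2 CPM with the next at 48.9.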

How the results depend on the processing

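In F1 the likelihood ratio test called 3 members, DESeq2 2 and a fit of all generations together 5, in place of 0. Of all genes, these fits called 598, 658 and 852 in F1, in place of 237. Between F2 and F1 effects, the likelihood ratio test and the fit with no filter called 1 member each, in place of 0. They called 168 and 66 of all genes, in place of 33. Without libraries 32 to 36, 2 members and 431 of 11418 genes were called between F3 and F1 effects, in place of 0 of either. In that fit, 6 members in place of 3 had a lower effect in F3 than in F2. Without those libraries the sign turned in F1 for COL16A1 (0.094) and COL5A3 (0.095) and in F2 for COL4A4 (-0.0035) and COL6A3 (-0.10). The cause was not tested.

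With 1 library left out, members called ranged from 0 to 1 in F3, from 0 to 1 between F2 and F1 effects, from 0 to 3 between F3 and F1 effects, from 4 to 8 between F2 and F1 controls and from 3 to 6 between F3 and F2 controls. Over all genes, calls ranged from 288 to 639 in F3. Between F2 and F1 effects they ranged from 0 to 219, and between F3 and F1 effects from 0 to 454. Members with estimates below 0 ranged from 20 to 26 in F1, from 23 to 29 in F2 and from 2 to 9 in F3. The lowest counts were 20 without F1 sGC replicate 5 and 2 without F3 control replicate 5. Between F3 and F2 effects the range was from 2 to 5. Signs turned for members near 0. In F1 the ranges were -0.035 to 0.26 for COL11A1, -0.15 to 0.012 for COL12A1, -0.13 to 0.12 for COL16A1, -0.11 to 0.011 for COL4A1, -0.16 to 0.016 for COL5A2, -0.20 to 0.045 for COL5A3 and -0.14 to 0.0082 for COL9A3. In F2 they were -0.12 to 0.015 for COL12A1, -0.062 to 0.073 for COL1A2, -0.029 to 0.029 for COL4A4, -0.038 to 0.14 for COL4A5, -0.10 to 0.014 for COL4A6 and -0.10 to 0.11 for COL6A3. In F3 they were -0.10 to 0.14 for COL16A1, -0.10 to 0.26 for COL24A1, -0.054 to 0.093 for COL27A1, -0.074 to 0.067 for COL5A2 and -0.062 to 0.029 for COL8A1.

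With the replicate number as a block, 0 members were called in F1, F2 and F3 and in each interaction, and 27, 27 and 8 members were lower in F1, F2 and F3. The medians were -0.11, -0.11 and 0.13. Of same-numbered pairs, 1 in F1, 1 in F2 and 0 in F3 correlated best with their own number. Over all alternatives, single genes kept their side of the threshold and direction in 2181 cases, lost the call in 69, gained it in 27 and turned sign in 57.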
